A study of Mus musculus with 2 samples.

Results

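Neuropeptides are cut from larger precursor proteins, and the 42 genes described here encode such precursors or the granins that are packed and released with them. They are the 42 rows, of 31252 gene rows in the deposited count table, whose gene symbol stands on a list of neuropeptide precursors. The list names genes by function and sets no threshold on a measured value, but it was chosen with earlier results of these data known. The tissue was ventral midbrain, dissected when the mice were 2 months old, on an incipient congenic C57BL/6 background. Both genotypes carried Slc6a3-Cre, which expresses Cre recombinase where the dopamine transporter gene is active, that is in dopaminergic (DA) neurons. The control (Ctrl) mice carried Slc6a3-Cre, and the overexpressing (OE) mice also carried CAG-S-COUP-TFII. From this allele Cre switches on the orphan nuclear receptor COUP-TFII. The paper describes Ctrl and OE littermates from a cross whose parents also carried floxed Tfam alleles and, in the females, a tdTomato reporter. The females carried both on each chromosome copy, so all pups of that cross, Ctrl and OE alike, inherit a floxed Tfam allele and the reporter. The paper does not say so for the sequenced mice in particular. There was 1 library per genotype, and the labels do not say whether tissue from several mice was pooled. No difference between the libraries therefore has a replicate check, and no test was made.

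A neuropeptide precursor enters the secretory pathway, is packed into dense core vesicles together with granins, and is cut there by prohormone convertases at pairs of basic residues. Carboxypeptidase E trims the fragments and the amidating enzyme Pam finishes many of them. The peptides are then released and act on receptors, most of which couple to G proteins. In the midbrain, cholecystokinin and neurotensin are known from DA neurons, urocortin and CART from the Edinger-Westphal nucleus, and vasopressin and oxytocin from fibres whose cell bodies lie in the hypothalamus.

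The values are expected counts, the number of reads that the program RSEM assigned to each gene. They summed to 16984336 in the Ctrl-labelled library and 21326632 in the OE-labelled library. The gene targeted by the allele, Nr2f2, which encodes COUP-TFII, had 637 counts in the Ctrl-labelled library and 377 in the OE-labelled library, a log2 fold change of -1.07 (interval -1.26 to -0.88). It thus goes against the labels in this unsorted tissue. The paper reports raised COUP-TFII mRNA in DA neurons isolated from OE mice, which is an unlike measure. What lies behind the lower Nr2f2 count was not tested. Every direction below therefore compares the OE-labelled library with the Ctrl-labelled library, not overexpression with control. Fold changes are log2 ratios of the OE-labelled library over the Ctrl-labelled library after TMM scaling and a pseudocount of 0.5 normalized counts. Intervals come from the exact 95% Clopper-Pearson method applied to how the 2 counts divide, and cover counting error only. The labels give the cell type as dopaminergic neurons, but the tissue was not sorted. All 10 listed DA markers were present, and so were all 6 markers each of oligodendrocytes, astrocytes and microglia. In such tissue, fewer cells of a type and less RNA per cell cannot be told apart.

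Neuropeptide precursors took 0.186% of all counts in the Ctrl-labelled library and 0.204% in the OE-labelled library. All 42 had a count in at least 1 library. Of these, 31 averaged 10 counts or more across both libraries, the minimum set for counting genes past a threshold, and 11 did not. By a second measure, 31 had over 3 counts in both libraries, 6 had 3 or fewer in 1 library, and 5 had 3 or fewer in both, for which no fold is given. The members moved in both directions and their median log2 fold change was -0.036, beside 0.0046 for all 15246 genes averaging 10 counts or more. Among the 31 members, 4 were lower in the OE-labelled library by more than log2 1, namely Avp, Oxt, Crh and Pdyn, which is 12.9%, where 1.28% of all 15246 genes were. On the higher side 1 member passed log2 1, Trh, or 3.23%, where 1.53% of all genes did. By the study's own threshold of log2 0.2, 10 members were higher and 10 lower, 32.3% each, beside 17.9% and 16.6% of all genes. A counting interval lay above 0 for 9 members, or 29.0%, and below 0 for 7, or 22.6%, beside 15.8% and 14.4% of all genes. The other 15 had intervals that held 0. Avp and Oxt reached the minimum of 10 counts only through the Ctrl-labelled library, with 1 and 2 counts in the other. Trh and Calcb reached it only through the OE-labelled library, with 9 and 8 counts in the other. The shares thus include genes that passed the minimum through the library where they are high. They do not show whether the list as a whole differs from all genes.

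**Figure D1:**
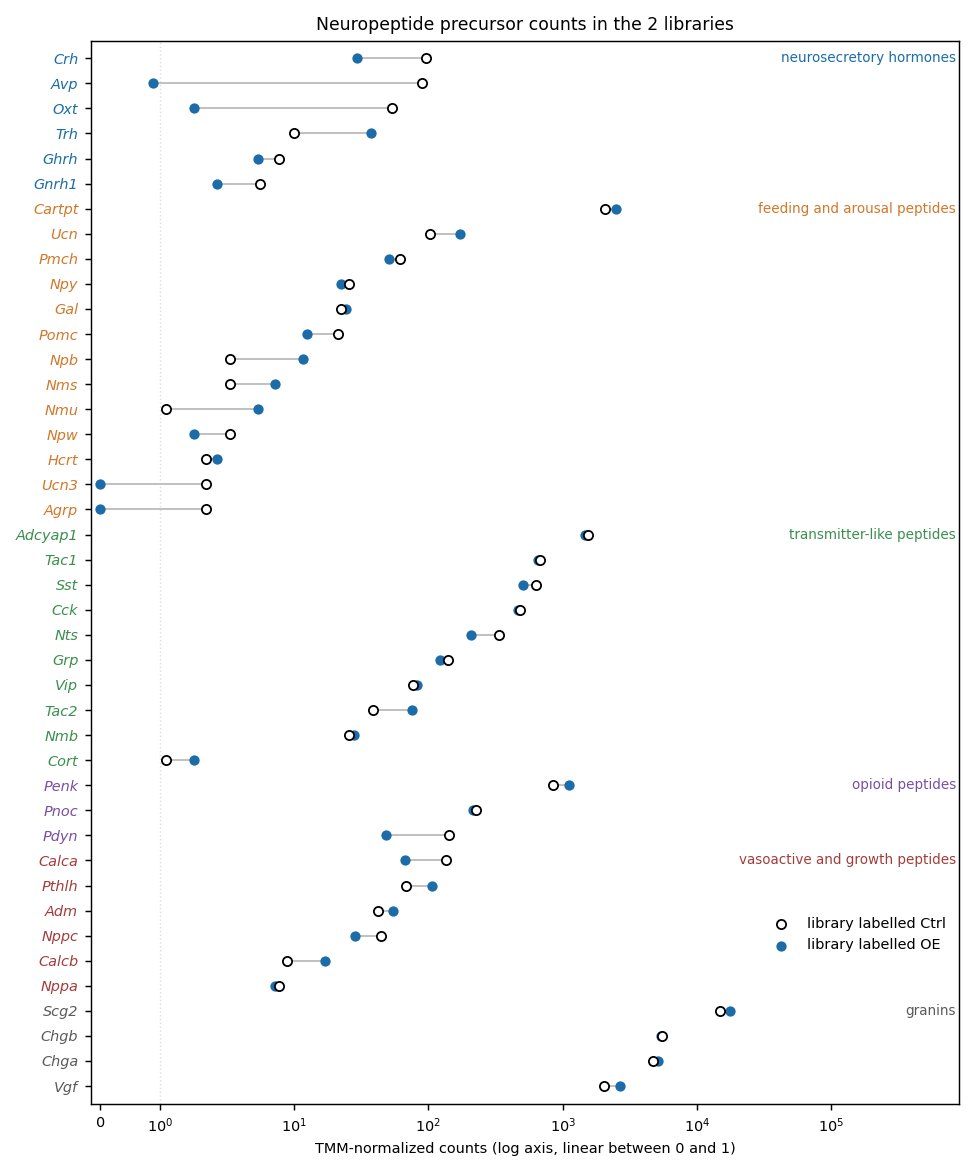
Normalized counts of all 42 neuropeptide precursors in the Ctrl-labelled library (open circles) and the OE-labelled library (filled circles), grouped by role. The axis is logarithmic above 1 and linear between 0 and 1, each grey line joins the values of 1 gene, and the longest line is that of Avp.

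**Figure D2:**
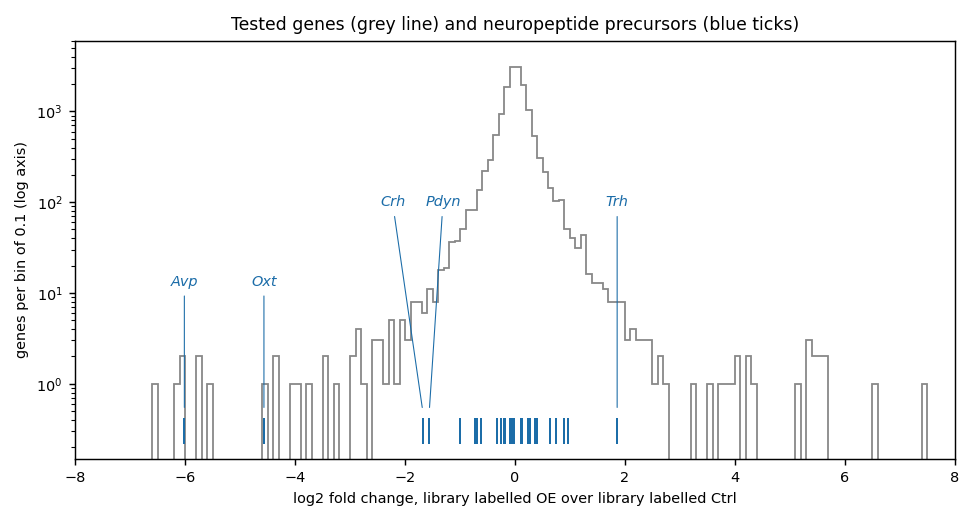
Number of genes in bins of 0.1 log2 units for the 15246 genes averaging 10 counts or more (grey line, log axis), with the 31 neuropeptide precursors among them as blue ticks. Avp at -6.02 and Oxt at -4.57 lie far to the left, and Trh at 1.86 is the farthest to the right.

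The largest differences were among the precursors of neurosecretory hormones. Avp, the precursor of vasopressin, which acts on water balance and social behaviour, had 80.6 expected counts in the Ctrl-labelled library and 1 in the OE-labelled library. Oxt, the precursor of oxytocin, had 48.4 and 2. Both were thus close to 0 in the OE-labelled library and well above it in the other. The Avp ratio was 100.2 (counting interval 17.6 to 4024), and 33.4 if the OE-labelled library is set to a floor of 3 counts. The Oxt ratio was 30.0 (7.82 to 253), and 20.0 against the floor of 3 counts. In the order of log2 fold changes from the lowest upwards, Avp stood at rank 4 and Oxt at rank 8 of the 15246 genes. Both ranks rest on 1 and 2 counts in the OE-labelled library and on the pseudocount of 0.5.

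Avp and Oxt are also the only 2 members whose counts are not whole numbers, because RSEM divided reads between them. The genes are neighbours on chromosome 2 of GRCm38, the assembly also called mm10. Oxt lies at chr2:130576173-130577054 on the plus strand and Avp at chr2:130580620-130582554 on the minus strand, with 3565 bases between them. Their transcripts share an identical stretch of 127 bases, all of it coding, with 2 bases in exon 1 and 125 in exon 2, in the part that encodes neurophysin, the carrier of both hormones. It spans positions 144 to 270 of the 577-base Avp transcript and 156 to 282 of the 537-base Oxt transcript in GENCODE M21. A read of 50 bases that falls within this stretch fits both genes, which holds for 14.8% of the start positions in Avp and 16.0% in Oxt. These shares are for single reads. The libraries were read from both ends, and a pair fits both genes only if both of its reads do. The share for pairs was not computed and would be no larger. The stretch is shown because the division of counts between the genes rests on the bases outside it.

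shared Avp and Oxt stretch: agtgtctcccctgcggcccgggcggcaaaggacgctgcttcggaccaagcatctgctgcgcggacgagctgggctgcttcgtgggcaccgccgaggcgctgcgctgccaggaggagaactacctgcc

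The sum of both genes does not depend on that division. It was 129 counts in the Ctrl-labelled library and 3 in the OE-labelled library, a log2 fold change of -5.50 (interval -8.04 to -4.16) and a ratio of 53.4 (17.9 to 262). This sum was added after the values were seen.

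Crh, the precursor of corticotropin-releasing hormone, which starts the hormonal stress response, had 86 counts in the Ctrl-labelled library and 33 in the OE-labelled library. The log2 fold change was -1.68 (interval -2.32 to -1.10), at rank 62 from the lowest. Trh, the precursor of thyrotropin-releasing hormone, went the other way, with 9 counts in the Ctrl-labelled library and 42 in the OE-labelled library. Its log2 fold change was 1.86 (interval 0.85 to 3.13), at rank 54 from the highest. The group was therefore not uniform. The 2 remaining hormone precursors were near the floor, Gnrh1 (gonadotropin-releasing hormone) with 5 and 3 counts and Ghrh (growth hormone-releasing hormone) with 7 and 6, with intervals that held 0.

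The hypothalamus holds the cell bodies that make most of these hormones. Of 13 markers of the hypothalamus, 6 averaged 10 counts or more, and their median log2 fold change was 0.56. None of the 6 was lower in the OE-labelled library, while Avp, Oxt and Crh were. Counting intervals lay above 0 for 2 of them, Sim1 and Nkx2-1, and held 0 for Six3, Isl1, Lhx6 and Dlx1. Their summed normalized count over all 13 was 390 in the Ctrl-labelled library and 510 in the OE-labelled library. Sim1, a transcription factor of the neurons that make vasopressin and oxytocin, had 58 and 108 counts. Otp, another one, had 0 and 9, a mean under the minimum of 10. Rax and Hmx2 were at 0 in both. Of 8 markers of the hormone-making cells of the pituitary, 5 were at 0 in both libraries, and Prl with 6 and 0 counts was the highest of the rest. These markers do not cover the posterior lobe, which receives the vasopressin and oxytocin fibres, so they say nothing about it. Markers of the thalamus moved with Avp and Oxt: all 10 were lower in the OE-labelled library with an interval below 0, 9 of them by more than log2 1, and their summed normalized count was 12856 in the Ctrl-labelled library and 6126 in the OE-labelled library. The part of any of these tissues in the differences of the peptide precursors was not tested.

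**Figure D3:**
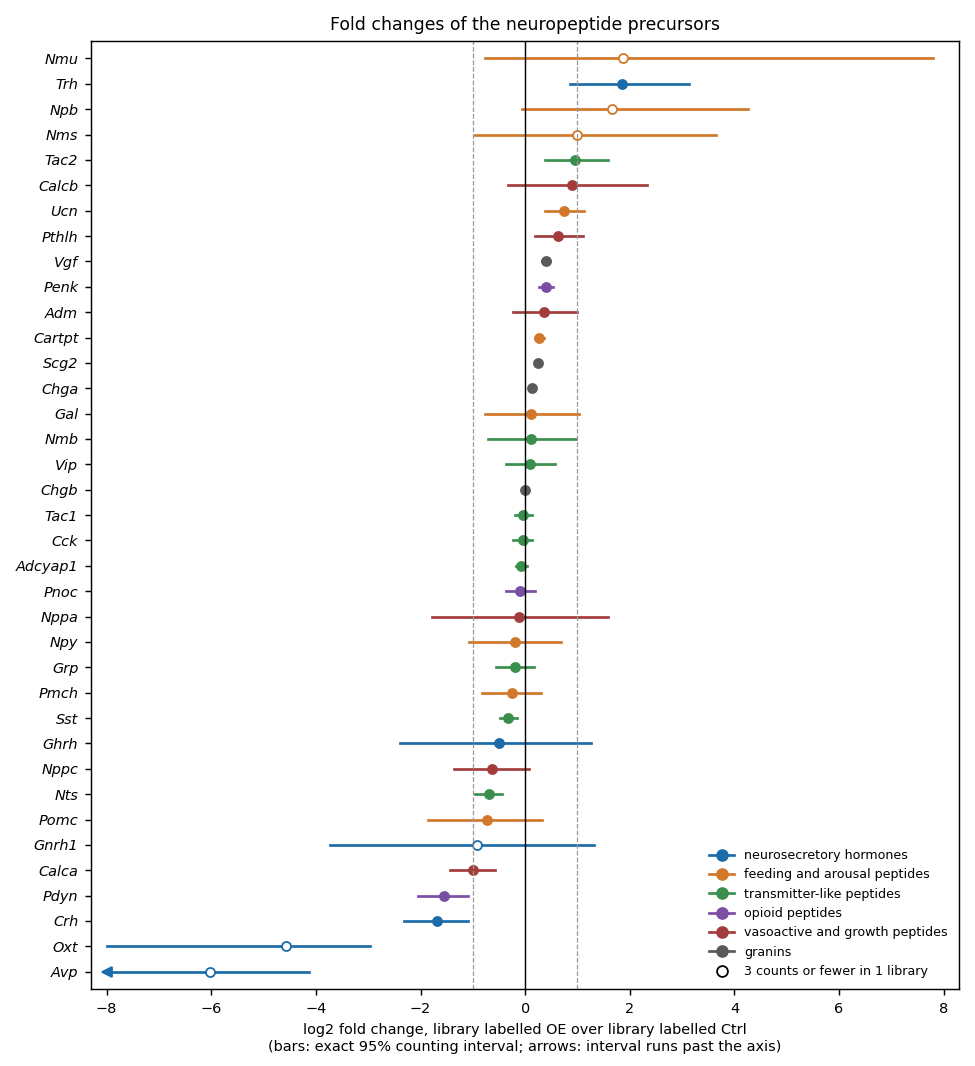
Log2 fold change of the 37 neuropeptide precursors with over 3 counts in at least 1 library, as the OE-labelled library over the Ctrl-labelled library, coloured by role. Bars are exact 95% counting intervals, open circles mark genes with 3 counts or fewer in 1 library, and dashed lines stand at -1 and 1. The intervals of Avp, Oxt, Crh and Pdyn lie wholly below -1, and those of the granins are the narrowest.

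Among peptides that act on feeding and arousal, Cartpt and Ucn were higher in the OE-labelled library. Cartpt, the precursor of the CART peptide, had 1856 and 2785 counts, for a log2 fold change of 0.27 (interval 0.19 to 0.36). Ucn, the precursor of urocortin, a relative of corticotropin-releasing hormone, had 92 and 191, a log2 fold change of 0.74 (0.37 to 1.12). Ucn thus differed more than Cartpt, and their intervals did not overlap. Cck, which the same Edinger-Westphal neurons can also make, had 431 and 518 counts, and its value of -0.048 (-0.24 to 0.14) was within counting error. Ucn moved opposite to Crh, although both peptides act on the receptor Crhr1, which itself had 338 and 577 counts (0.46, interval 0.26 to 0.66).

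The other feeding peptides were scarce and none had an interval clear of 0. Pmch, the precursor of melanin-concentrating hormone, had 55 and 57 counts and a log2 fold change of -0.26 (interval -0.82 to 0.30). Npy (neuropeptide Y) had 23 and 25 counts, Gal (galanin) 20 and 27, and Pomc, which yields melanocortins and beta-endorphin, 19 and 14. At these counts the intervals are wide: that of Pomc ran from -1.86 to 0.32. Npb (neuropeptide B) had 3 and 13 counts, Nms (neuromedin S) 3 and 8, and Nmu (neuromedin U) 1 and 6. All 3 had more counts in the OE-labelled library, but their intervals held 0, with ratios of 3.49 (0.96 to 19.1), 2.15 (0.52 to 12.6) and 4.83 (0.59 to 222). Set against a floor of 3 counts, the Nmu ratio was 1.61. Agrp (agouti-related peptide) and Ucn3 (urocortin 3) each had 2 and 0 counts, Hcrt, the orexin precursor of the lateral hypothalamus, had 2 and 3, and Npw (neuropeptide W) had 3 and 2. The scarcity of Hcrt and Agrp, whose cell bodies lie in the hypothalamus, contrasts with Pmch, which is made in the same lateral hypothalamic area as Hcrt.

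The 3 opioid precursors each behaved differently. Pdyn, the precursor of dynorphins, had 129 counts in the Ctrl-labelled library and 54 in the OE-labelled library. Its log2 fold change was -1.56 (interval -2.06 to -1.10), at rank 72 from the lowest. Penk, the precursor of enkephalins, had 763 and 1244 counts and was higher in the OE-labelled library by 0.39 (0.26 to 0.52). Pnoc, the precursor of nociceptin, had 205 and 239 counts, and its value of -0.092 (-0.37 to 0.18) was within counting error. Penk and Pdyn therefore moved in opposite directions. The dynorphin receptor Oprk1 had 343 and 783 counts (0.88, interval 0.69 to 1.06) and so moved opposite to Pdyn. The nociceptin receptor Oprl1, with 1608 and 2004 counts, had a log2 fold change of 0.0044 (-0.091 to 0.10).

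Of the transmitter-like peptides, Nts and Sst were lower in the OE-labelled library and Tac2 was higher. Nts, the precursor of neurotensin, had 301 and 230 counts, for a log2 fold change of -0.70 (interval -0.96 to -0.45). Sst, the precursor of somatostatin, an inhibitory peptide of many GABAergic neurons, had 573 and 570 counts, which at the greater depth of the OE-labelled library is a log2 fold change of -0.32 (-0.49 to -0.15). Tac2, the precursor of neurokinin B, had 35 and 85 counts, for a log2 fold change of 0.96 (0.38 to 1.58). Its relative Tac1, which yields substance P, had 604 and 732 counts and a value of -0.036 (-0.19 to 0.12). The 2 tachykinin genes thus differed from each other beyond counting error.

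The other members of this group did not differ detectably. Adcyap1, the precursor of PACAP, had 1394 and 1640 counts and a log2 fold change of -0.079 (interval -0.18 to 0.025). Grp (gastrin-releasing peptide) had 126 and 137 counts, Vip (vasoactive intestinal peptide) 69 and 92, and Nmb (neuromedin B) 23 and 31. Their log2 fold changes were -0.19 (-0.55 to 0.17), 0.10 (-0.36 to 0.57) and 0.12 (-0.71 to 0.96). Cort, the precursor of cortistatin, had 1 and 2 counts. DA neurons are a known source of Cck and Nts in this tissue, but neither moved with the DA markers. All 10 DA markers were higher in the OE-labelled library, from 0.79 for Nr4a2 to 2.00 for Pitx3, and their summed normalized count was 23680 in the Ctrl-labelled library and 55037 in the OE-labelled library. Over the same libraries the interval of Cck held 0 and Nts was lower.

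Among vasoactive and growth-related peptides, Calca was lower and Pthlh higher in the OE-labelled library. Calca, which yields calcitonin and calcitonin gene-related peptide, had 121 and 75 counts and a log2 fold change of -0.998 (interval -1.44 to -0.58), just short of the threshold of log2 1, which it passed with scaling by total counts. Calcb, its neighbouring paralog, had 8 and 19 counts, and its value of 0.90 (-0.32 to 2.34) had an interval that held 0. The counts of both genes are whole numbers in both libraries, and sequence shared between the 2 paralogs was not measured. Pthlh, the parathyroid hormone-related protein, had 61 and 118 counts, for a log2 fold change of 0.63 (0.18 to 1.11). Nppc, the C-type natriuretic peptide, had 40 and 32 counts (-0.63, interval -1.35 to 0.072), and Adm, the vessel-relaxing peptide adrenomedullin, had 38 and 61 (0.37, interval -0.24 to 0.99). Nppa, the atrial natriuretic peptide, had 7 and 8 counts.

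Granins, acidic proteins that fill dense core vesicles and are themselves cut into peptides, made up most of the signal, with 77.1% of the members' counts in the Ctrl-labelled library and 79.1% in the OE-labelled library. Scg2, the precursor of secretoneurin, had 13429 and 19664 counts, for a log2 fold change of 0.24 (interval 0.21 to 0.27). Vgf, whose peptides act on energy balance and which neuronal activity and growth factors induce, had 1823 and 2986 counts, for a log2 fold change of 0.40 (0.31 to 0.48). Chga (chromogranin A) had 4210 and 5706 counts, a value of 0.13 (0.068 to 0.18), and Chgb (chromogranin B) had 4917 and 6063, a value of -0.011 (-0.065 to 0.044). The order of the differences was thus Vgf, Scg2, Chga and Chgb, with no overlap between the intervals of any neighbours. Their high counts make these small differences detectable where a difference of the same size in Npy or Gal would not be.

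Levels can be compared between genes only per length, here as counts per kilobase of the longest protein-coding transcript in GENCODE M21 and per 1000000 scaled counts. On this scale Scg2 was the most abundant member, at 313 in the Ctrl-labelled library and 369 in the OE-labelled library. Chga followed at 131 and 143, then Chgb at 105 and 104 and Cartpt at 87.8 and 106. Cartpt was thus the most abundant precursor outside the granins and in the OE-labelled library stood level with Chgb. Next came Vgf at 37.7 and 49.7, Sst at 46.5 and 37.3, Penk at 30.8 and 40.5, Cck at 31.6 and 30.6, Tac1 at 28.8 and 28.1, and Adcyap1 at 24.1 and 22.8. Sst ranked above Vgf and Penk in the Ctrl-labelled library and below both in the OE-labelled library. Ucn reached 10.7 and 17.9, and Nts followed at 14.1 and 8.69. Avp stood at 8.19 in the Ctrl-labelled library, above Calca at 7.13 there, and at 0.082 in the OE-labelled library.

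Promoters, the 250 bases before and 50 after a gene's start, were found in RefSeq (GRCm38.p6) for 32 of the 42 genes, with 35 promoters in all. They were searched for 3 motifs, the first and second on both strands and the third on the strand of the gene, and none of the matches marked in the promoters shown overlap. The motif TGACGTCA is the cAMP response element, first described in the somatostatin promoter and read by CREB. It stood in 5 of the 35 promoters, or 14.3%, those of Sst, Cartpt, Ucn, Scg2 and Chgb, and in 1.79% of all 32851 promoters in the table. The motif AGGTCA is the half-site of many nuclear receptors, COUP-TFs included, and stood in 7 of the 35, or 20.0%, and in 16.3% of all promoters. The third, TATAAA, the core of the TATA box, stood in 9 of the 35, or 25.7%, and in 8.32% of all promoters. The genes with the first motif did not share a direction: Ucn, Cartpt and Scg2 were higher in the OE-labelled library, Sst was lower, and the interval of Chgb held 0. Promoters of 3 genes with the largest differences, Avp, Oxt and Trh, and of Ucn, Cartpt and Sst, which hold the cAMP response element, are printed 5′ to 3′ on the strand of the gene. Capitals mark the first and second motifs, with AGGTCA read as TGACCT where it lies on the other strand.

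Avp, chr2:130582539-130582838, minus strand: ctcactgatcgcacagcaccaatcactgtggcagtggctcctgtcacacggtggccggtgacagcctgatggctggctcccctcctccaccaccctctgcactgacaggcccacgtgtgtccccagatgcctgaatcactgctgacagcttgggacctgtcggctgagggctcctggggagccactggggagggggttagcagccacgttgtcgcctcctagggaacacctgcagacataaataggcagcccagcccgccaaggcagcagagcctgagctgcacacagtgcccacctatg
Oxt, chr2:130575919-130576218, plus strand: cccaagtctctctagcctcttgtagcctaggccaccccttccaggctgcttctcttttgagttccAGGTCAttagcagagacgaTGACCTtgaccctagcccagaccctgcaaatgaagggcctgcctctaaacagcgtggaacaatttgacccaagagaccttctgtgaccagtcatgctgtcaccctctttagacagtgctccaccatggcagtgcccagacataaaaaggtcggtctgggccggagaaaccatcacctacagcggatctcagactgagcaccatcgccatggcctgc
Trh, chr6:92244601-92244900, minus strand: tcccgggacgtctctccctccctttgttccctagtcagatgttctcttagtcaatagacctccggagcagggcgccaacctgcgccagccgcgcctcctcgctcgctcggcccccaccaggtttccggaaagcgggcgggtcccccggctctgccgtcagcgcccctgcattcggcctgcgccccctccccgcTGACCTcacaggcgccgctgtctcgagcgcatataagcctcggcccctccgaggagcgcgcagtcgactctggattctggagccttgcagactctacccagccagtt
Ucn, chr5:31138846-31139145, minus strand: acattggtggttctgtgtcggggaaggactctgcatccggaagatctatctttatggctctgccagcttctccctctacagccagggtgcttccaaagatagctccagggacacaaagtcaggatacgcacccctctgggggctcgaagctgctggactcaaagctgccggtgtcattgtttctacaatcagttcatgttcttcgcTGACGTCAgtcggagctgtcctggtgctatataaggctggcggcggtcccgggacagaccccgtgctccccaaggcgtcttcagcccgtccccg
Cartpt, chr13:99900634-99900933, minus strand: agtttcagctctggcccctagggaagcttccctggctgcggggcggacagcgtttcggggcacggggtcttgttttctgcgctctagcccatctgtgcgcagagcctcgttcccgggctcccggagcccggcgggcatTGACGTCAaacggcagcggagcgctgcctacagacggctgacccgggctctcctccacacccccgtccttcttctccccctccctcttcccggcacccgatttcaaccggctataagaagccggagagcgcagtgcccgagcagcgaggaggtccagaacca
Sst, chr16:23890795-23891094, minus strand: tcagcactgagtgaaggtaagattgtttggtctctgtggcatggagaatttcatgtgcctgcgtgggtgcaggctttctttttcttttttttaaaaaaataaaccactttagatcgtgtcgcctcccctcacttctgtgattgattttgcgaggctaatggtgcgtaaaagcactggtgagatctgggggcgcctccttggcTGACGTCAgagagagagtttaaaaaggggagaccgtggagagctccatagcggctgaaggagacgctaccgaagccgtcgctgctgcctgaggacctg

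The Oxt promoter held AGGTCA at -185 and, on the other strand, at -166 from the gene's start, and Trh held it on the other strand at -57, while Avp held neither of them in this window. The cAMP response element began at -44 in Ucn, -48 in Sst and -112 in Cartpt. A match of letters is a description of the sequence and not a site of binding.

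A list of 17 genes of peptide processing and of dense core vesicles was examined next, all of them averaging 10 counts or more. By more than log2 0.2, 7 were higher in the OE-labelled library and 1 was lower, where 17.9% and 16.6% of all genes were. Counting intervals lay above 0 for 11 and below 0 for 2, where 15.8% and 14.4% of all genes did. Of those 11 genes, Cadps, Cadps2, Ptprn, Ptprn2 and Scg3 belong to the vesicle and its release and do not cut precursors. High counts let small differences clear 0: Scg3, with 4175 and 5405 counts, had a value of 0.059 (interval 0.00077 to 0.12). The number of intervals clear of 0 is therefore not like for like with genes of fewer counts. The median of the list was 0.13, beside 0.0046 over all genes tested. Pcsk1 and Pcsk2, the prohormone convertases that cut most neuropeptide precursors, had log2 fold changes of 0.36 (570 and 908 counts, interval 0.21 to 0.51) and 0.085 (3249 and 4282 counts, interval 0.019 to 0.15). Pam had 3789 and 5729 counts, a value of 0.28 (0.22 to 0.34), and Cpe had 43449 and 49818, a value of -0.12 (-0.13 to -0.10). The highest values of the list were 1.12 for Pcsk1n, which encodes an inhibitor of Pcsk1 (1236 and 3346 counts, interval 1.03 to 1.22), and 0.82 for Pcsk5 (98 and 215 counts). The lowest were -0.24 for Cpd and -0.14 for Pcsk7, whose interval held 0.

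Receptors of the members moved in both directions, as the precursors did. Of 51 receptor genes, 41 averaged 10 counts or more, with a median log2 fold change of 0.060. By more than log2 0.2, 17 were higher in the OE-labelled library and 10 lower, where 17.9% and 16.6% of all genes were. By more than log2 1, 4 were higher and 1 lower, where 1.53% and 1.28% of all genes were. Counting intervals lay above 0 for 10 and below 0 for 3, where 15.8% and 14.4% of all genes did. The highest was Npbwr1, the receptor of neuropeptides B and W, with 27 and 92 counts (1.44, interval 0.82 to 2.13). Next came Tacr3, the receptor of neurokinin B, with 407 and 1193 counts (1.24, interval 1.07 to 1.40), which moved the same way as its ligand gene Tac2. The neurotensin receptor Ntsr1 had 510 and 1461 counts (1.20, interval 1.06 to 1.35) and so moved opposite to Nts. The lowest was Vipr2, which binds both VIP and PACAP, with 199 and 42 counts (-2.54, interval -3.07 to -2.07), while the intervals of its ligand genes Vip and Adcyap1 held 0. Npy1r, a receptor of neuropeptide Y, had 300 and 221 counts (-0.75, interval -1.01 to -0.50). The vasopressin receptor Avpr1a (49 and 83 counts) and the oxytocin receptor Oxtr (73 and 98) had intervals that held 0, so neither showed the difference of its ligand. Crhr1, Oprk1, Oprl1, Ntsr1, Avpr1a and Oxtr were named after their values were seen.

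**Figure D4:**
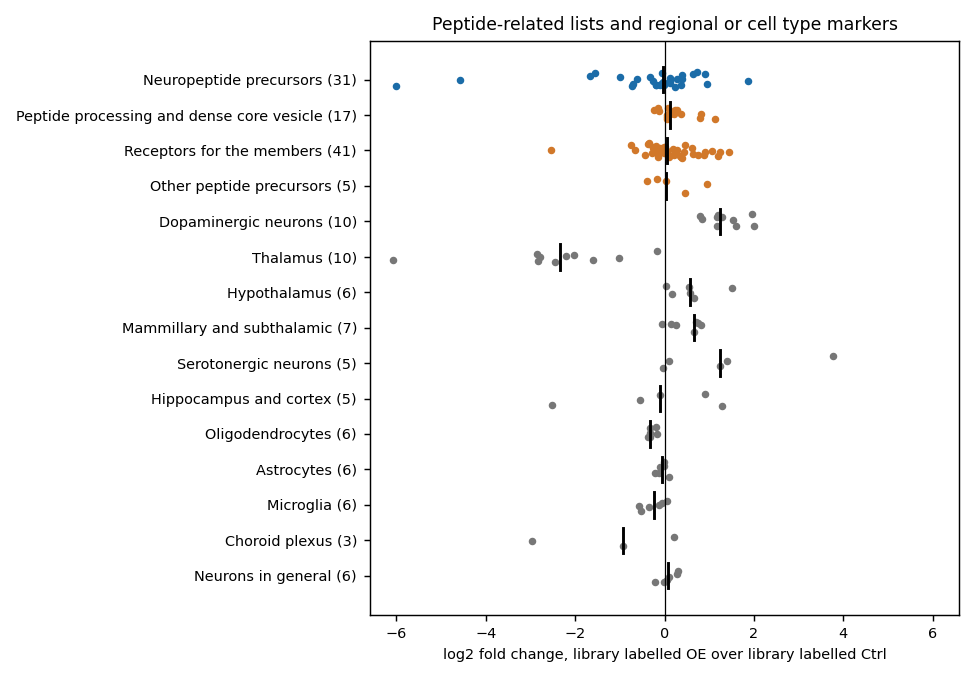
Log2 fold changes, OE-labelled library over Ctrl-labelled library, of the neuropeptide precursors (blue), of other peptide-related lists (orange) and of markers of regions and cell types (grey), with the number of genes of at least 10 mean counts in brackets. Each point is 1 gene and each black bar a median. The median of the precursors is -0.036, that of DA markers 1.24 and that of thalamus markers -2.33.

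The libraries also differed in markers of regions and cell types, which move beside the peptide precursors. Median log2 fold changes were 1.24 for DA neurons, 1.23 for serotonergic neurons (5 of 6 tested), 0.67 for mammillary and subthalamic nuclei (7 of 7), and 0.075 for neurons in general. They were -2.33 for thalamus, -0.92 for choroid plexus (3 of 5 tested), -0.32 for oligodendrocytes, -0.24 for microglia, -0.11 for hippocampus and cortex (5 of 7) and -0.057 for astrocytes. Serotonergic neurons of the raphe can hold Trh, and beside Trh, with 9 and 42 counts, Tph2 had 19 and 63 and Slc6a4 had 1 and 24, while Fev, which defines these neurons, had 1 and 0. Of the other 3 markers on that list, Lmx1b had 21 and 62 counts (1.23, interval 0.51 to 2.04), while Gata2 with 149 and 182 and Gata3 with 203 and 269 had intervals that held 0. The median of the serotonergic list is the value of Lmx1b itself. The paper cites Lmx1b as a factor for the survival of midbrain DA neurons, so this marker is not particular to serotonergic neurons. The part of these differences in tissue makeup in the values of the precursors was not tested, and with 1 library per genotype it cannot be told apart from genotype. Exons of 6 members overlap those of another gene. Penk, Pmch, Nppa, Nmu and Agrp overlap a gene on the opposite strand, and Nmb and Agrp overlap 1 on the same strand. Whether counting used the strand is not given in the sources used here.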

How the data were processed

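Each genotype gave 1 library of ventral midbrain RNA. Frozen tissue was sent by the authors to a company that prepared stranded mRNA libraries, read 50 bp from each end and processed the reads with an in-house workflow. What the authors deposited are RSEM expected counts per gene, unscaled. The labels name the build mm10, and the aligner and annotation are not given in the sources used here. Columns were matched to samples by the number in each title.

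Counts were scaled with TMM (factors 1.01 and 0.995, edgeR 4.0.16 in R 4.3.3), and intervals on rounded counts came from scipy 1.17.1. Genes averaging 10 counts or more were tested against fold thresholds. Transcript lengths and positions came from GENCODE M21, whose build is that of the counts. The scripts were tested on simulated data. The members, gene lists, roles and tests were chosen with earlier results of these data known. All members are named. From the lists of processing genes, receptors and other precursors, the 2 highest and 2 lowest fold changes are named, with Pcsk1, Pcsk2, Cpe and Pam. Marker genes beyond the list summaries were named after their values were seen. Alternatives were 3 other scalings (DESeq2 1.42.0 among them), a pseudocount of 5, and other minimum counts. The result of 1 marker list is not reported here.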

Additional observations from a re-analysis of the deposited data

How the results depend on the processing

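No paired analysis was possible because a genotype had only 1 library, and for the same reason no library could be left out. Under the 3 other scalings and the pseudocount of 5, Nr2f2 stayed between -1.08 and -1.06, and the median of the precursors between -0.051 and -0.022. The median over all tested genes shifted most, by -0.015, with scaling by total counts. No single precursor with a counting interval clear of 0 changed its sign. A pseudocount of 5, which by construction shrinks differences at low counts, moved Avp to -4.01, Oxt to -3.12, Nmu to 0.76 and Npb to 0.998. Among the other precursors for which a fold is given, no ratio between the libraries changed by over 1.5 times. With scaling by total counts, 5 precursors were lower by more than log2 1, Calca included, and 12 by more than log2 0.2. Counts of precursors also moved with the minimum, which sets how many can pass. With all genes with a count, 3 were higher and 6 lower by more than log2 1, and 15 higher and 15 lower by more than log2 0.2. That setting also counts precursors for which no fold is given above. Agrp and Ucn3, with 2 and 0 counts each, are among the 6 lower, and Nmu and Npb, whose intervals held 0, among the 3 higher. Averaging 100 counts or more, which leaves 14 precursors, 0 were higher and 0 lower by more than log2 1, and 5 were higher and 2 lower by more than log2 0.2. The share of all genes past each threshold is not given for total-count scaling or for the other minimums. These counts of precursors therefore cannot be read as more or fewer than among all genes. Without the 4 granins, a choice made after the data were seen, the median was -0.079. Depth limits the 11 precursors with a mean under 10 counts, for which only a large difference could have been detected.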

Other observations

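Precursors of 24 further peptides, outside the 42 described above, were looked up by symbol, and 5 of them averaged 10 counts or more, with a median log2 fold change of 0.027. Rln3, the precursor of relaxin-3, a peptide of the nucleus incertus in the pons, had 30 counts in the Ctrl-labelled library and 73 in the OE-labelled library, a value of 0.96 (interval 0.34 to 1.63). Nucb2, the precursor of nesfatin-1, had 185 and 318 counts, a value of 0.47 (0.20 to 0.74). Apln, the precursor of apelin, had 1070 and 1188 counts, a value of -0.16 (-0.28 to -0.042), and Edn3 (endothelin 3) had 117 and 111, a value of -0.39 (-0.78 to -0.0020). Edn1 (endothelin 1) had 30 and 38 counts, and its interval held 0. Of the rest, 7 were at 0 in both libraries, among them Kiss1 (kisspeptin) and Pyy (peptide YY).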
